A study of Danio rerio with 9 samples.

Results

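The genes dgkzb, casq2, camk2d1 and plcb4b encode 4 proteins of calcium and lipid signalling, and their transcripts were measured in brain neurons of adult zebrafish, sorted after a complete spinal cord transection or without one. Each probe set that the platform annotation gives to 1 of the 4 symbols was taken, which found 4 probe sets, 1 per gene, among the 15502 probe sets and 8793 named genes of the array. No probe set with several symbols held any of the 4. The genes were chosen by their high log2 values in the regenerated neurons, so their differences between the regenerated and the other neurons are given here as a description, with no test.

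The regenerated neurons came from fish whose cord was cut at vertebra 8. They carried Fluororuby, a red dextran tracer taken up at the cut and carried back to the cell body, and Fluoroemerald, a green tracer injected 3 weeks later at 4 mm beyond the cut, which marks neurons whose axon reached that level again. The nonregenerated neurons came from fish treated in the same way and are labelled as not having regrown their axons. Both were sorted 1 week after the green tracer. Unlesioned neurons came from uncut fish, traced with Fluororuby at the same vertebra and collected 1 week later, so time since the red tracer differs between lesioned and unlesioned fish. All 9 arrays, 3 per group, hold amplified RNA of fluorescence-sorted cells from dissociated brain, marked by tracer. The arrays of a group are labelled as biological replicates. The fish are called adult, with no further age and no strain, and the labels do not say whether regenerated and nonregenerated samples came from the same fish.

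Receptors coupled to Gq proteins activate phospholipase C beta, which splits a membrane phosphoinositide into inositol trisphosphate and diacylglycerol. Inositol trisphosphate opens calcium channels of the endoplasmic reticulum, and calcium bound to calmodulin then turns on kinases such as CaMKII and the phosphatase calcineurin. Diacylglycerol activates protein kinase C until a diacylglycerol kinase converts it to phosphatidic acid. In mouse cerebellum this route is best known from Purkinje neurons, where it acts behind metabotropic glutamate receptors. Of the 4 proteins, plcb4b encodes a phospholipase C beta, casq2 a calsequestrin that buffers calcium inside the store, camk2d1 a delta subunit of CaMKII and dgkzb a diacylglycerol kinase of the zeta type.

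Values are log2 intensities as the authors deposited them, each probe set being centred on its own median over the 9 arrays. A value of 3 thus means 3 log2 units above that probe set's median, and no absolute level can be read from it. The regenerated arrays differed from the other 6 as a whole. The SD over all probe sets was 0.594 to 0.650 in regenerated, 0.394 to 0.427 in nonregenerated and 0.349 to 0.430 in unlesioned arrays. The median of 22 negative control probe sets, for sequences foreign to zebrafish, was 0.48, 0.04 and 0.28 in regenerated arrays 1, 2 and 3, from -0.16 to -0.0008 in nonregenerated and from -0.13 to 0.08 in unlesioned arrays. In sorted bulk samples, fewer cells of a type and less RNA per cell cannot be told apart.

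The 4 members were higher in every regenerated array than in any of the other 6 arrays. Taken in the order of the pathway, plcb4b (probe set Dr.11155.1.A1_at) had values of 1.95, 2.15 and 1.67 in the regenerated arrays, against -0.61, 0 and -1.81 in the nonregenerated and -0.26, 0.46 and -0.42 in the unlesioned arrays. Its regenerated arrays were close together and its nonregenerated arrays far apart, with array 3 lowest. The group means were 1.92 ± 0.24 in regenerated, -0.81 ± 0.92 in nonregenerated and -0.07 ± 0.47 in unlesioned neurons (SD, n = 3 each). The SD among nonregenerated arrays was larger than that of 97.7% of probe sets in the same group, and the SD among regenerated arrays larger than that of 32.9%. The difference was 2.73 ± 0.43 on the log2 scale between regenerated and nonregenerated neurons (SE from the model over all arrays, 6.63-fold) and 1.99 ± 0.43 between regenerated and unlesioned neurons (3.98-fold).

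The calcium buffer gene casq2 (Dr.11592.1.S1_at), whose mammalian form is the calsequestrin of the heart, had values of 3.41, 3.17 and 4.28 in the regenerated arrays, against -0.56, -0.41 and 0 in the nonregenerated and -0.11, 0.40 and -0.51 in the unlesioned arrays. Regenerated array 3 was the highest, and the nonregenerated and unlesioned arrays were mixed with each other. The means were 3.62 ± 0.58 in regenerated, -0.32 ± 0.29 in nonregenerated and -0.08 ± 0.46 in unlesioned neurons (SD, n = 3 each). The difference from nonregenerated neurons was 3.94 ± 0.34 (15.36-fold) and that from unlesioned neurons 3.69 ± 0.34 (12.9-fold).

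The kinase gene camk2d1 (Dr.21774.1.A1_at) had values of 3.80, 3.75 and 2.92 in the regenerated arrays, against -0.02, -0.71 and -0.89 in the nonregenerated and -0.58, 0.36 and 0 in the unlesioned arrays. Here regenerated array 3 was the lowest of its group, whereas it was the highest for casq2. The means were 3.49 ± 0.49 in regenerated, -0.54 ± 0.46 in nonregenerated and -0.07 ± 0.47 in unlesioned neurons (SD, n = 3 each). The difference was 4.03 ± 0.35 from nonregenerated (16.4-fold) and 3.56 ± 0.35 from unlesioned neurons (11.8-fold).

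The lipid kinase gene dgkzb (Dr.11340.1.A1_at) had values of 3.29, 4.27 and 4.11 in the regenerated arrays, against -0.48, -0.997 and -0.42 in the nonregenerated and 0, -0.34 and 0.66 in the unlesioned arrays. Regenerated array 1, with the highest negative control reading, was the lowest of its group for dgkzb. Nonregenerated arrays all lay below the unlesioned arrays, by a gap of 0.08 between the nearest arrays. The means were 3.89 ± 0.52 in regenerated, -0.63 ± 0.32 in nonregenerated and 0.11 ± 0.51 in unlesioned neurons (SD, n = 3 each). The difference was 4.52 ± 0.34 from nonregenerated (22.9-fold) and 3.78 ± 0.34 from unlesioned neurons (13.7-fold).

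**Figure D1:**
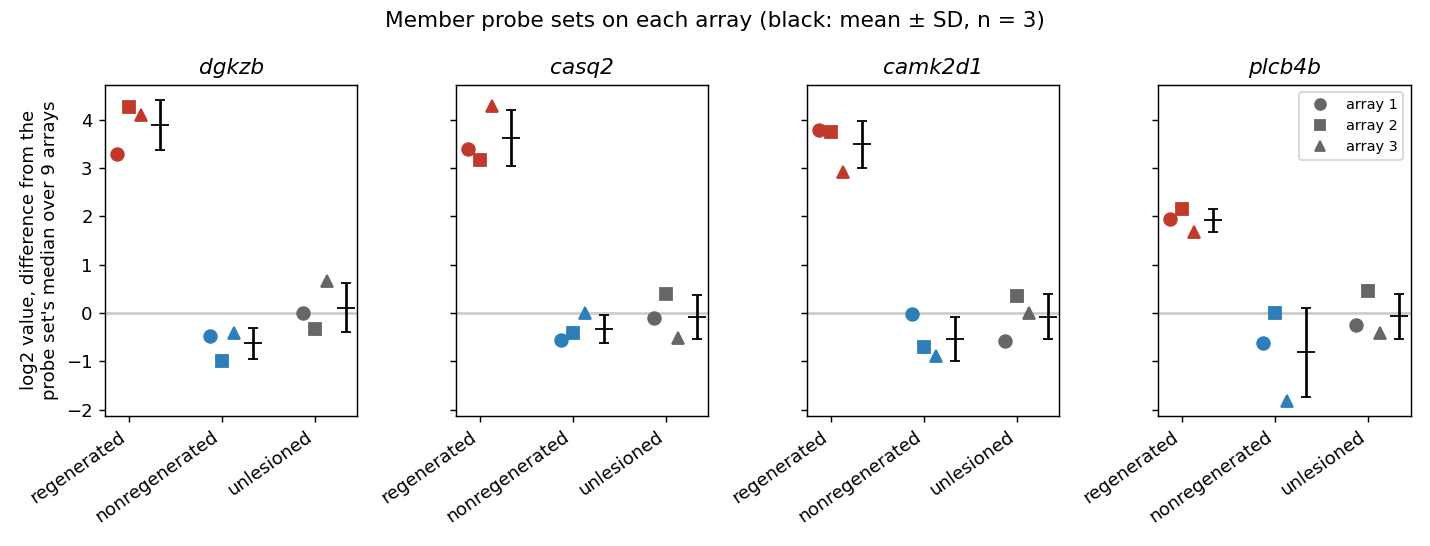
Log2 value of the probe set of each member gene on each array (vertical axis, difference from the probe set's median over the 9 arrays) by group, with marker shapes for array numbers and black bars for mean ± SD (n = 3). All regenerated arrays lie at 1.67 or above and all other arrays at 0.66 or below.

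The nearest arrays of the regenerated and nonregenerated groups were 3.71 apart for dgkzb, 3.17 for casq2, 2.95 for camk2d1 and 1.67 for plcb4b, on the log2 scale. Against the unlesioned arrays these gaps were 2.63, 2.77, 2.56 and 1.21 in the same order of genes. No overlap with higher regenerated arrays was found for 12.5% of all probe sets against nonregenerated and for 10.5% against unlesioned neurons. By size of the difference from nonregenerated neurons, dgkzb, camk2d1, casq2 and plcb4b were at places 6, 8, 10 and 37 of 15502 probe sets, and from unlesioned neurons dgkzb, casq2, camk2d1 and plcb4b were at places 8, 9, 11 and 67. At an adjusted p under 0.05 (limma, Benjamini-Hochberg over all probe sets) all 4 lay among the 1.05% of probe sets called higher against nonregenerated neurons (2.45% in either direction). Against unlesioned neurons 3 of them, without plcb4b, lay among the 0.871% called higher (2.22% in either direction). These counts follow from the choice of the genes. Both comparisons use the same regenerated arrays.

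The differences between regenerated and nonregenerated neurons ran from 4.33 to 4.82 for dgkzb, from 3.61 to 4.17 for casq2, from 3.86 to 4.32 for camk2d1 and from 2.23 to 3.13 for plcb4b when 1 array at a time was left out. With only array 2 left in the regenerated group, the array of lowest negative control reading, they were 4.90 for dgkzb, 3.49 for casq2, 4.29 for camk2d1 and 2.96 for plcb4b. With that reading fitted as a covariate they were 5.18 for dgkzb, 3.64 for casq2, 4.43 for camk2d1 and 2.96 for plcb4b. After a further quantile normalization, which narrows the wider regenerated arrays, they were 3.42, 2.96, 3.02 and 2.43 in the same order of genes.

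A test of these genes was made between nonregenerated and unlesioned neurons. These groups differ in the transection, in the time since the red tracer and in the green tracer. Only the lesioned neurons, moreover, were divided by whether their axons regrew. The parts of these differences cannot be told apart. The means compared leave out the regenerated arrays, whereas the standard errors come from the fit over all 9 arrays and so include their spread. The genes were chosen on their difference between regenerated and nonregenerated neurons, which low nonregenerated values widen. Estimates below 0 are thus favoured in part by that choice. The difference from unlesioned neurons was also known when the genes were chosen, and low unlesioned values would favour estimates above 0. All 4 point estimates were below 0, and none passed. The difference was -0.74 ± 0.34 for dgkzb (95% interval -1.50 to 0.02, limma adjusted p = 0.996, unadjusted p = 0.0553). It was -0.74 ± 0.43 for plcb4b (-1.71 to 0.24), -0.47 ± 0.35 for camk2d1 (-1.25 to 0.31) and -0.25 ± 0.34 for casq2 (-1.01 to 0.51), each at a limma adjusted p of 0.999. The intervals still allow falls of over 1 log2 unit. With only these 2 groups fitted, none was called either, and dgkzb had -0.74 ± 0.30 (limma adjusted p = 0.715). The sizes depended on single arrays. They ran from -1.14 (without nonregenerated array 2) to -0.23 (without nonregenerated array 3) for plcb4b, and from -0.73 (without nonregenerated array 1) to -0.25 (without unlesioned array 2) for camk2d1. For casq2 they ran from -0.47 (without unlesioned array 3) to -0.01 (without unlesioned array 2), and for dgkzb from -0.96 (without unlesioned array 2) to -0.46 (without unlesioned array 3). All stayed below 0, and none was called. In this comparison limma called 0 of 15502 probe sets (0%), with 790 (5.10%) at an unadjusted p under 0.05, and the nonregenerated arrays lay wholly below the unlesioned arrays, as for dgkzb, in 5.90% of probe sets.

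**Figure D2:**
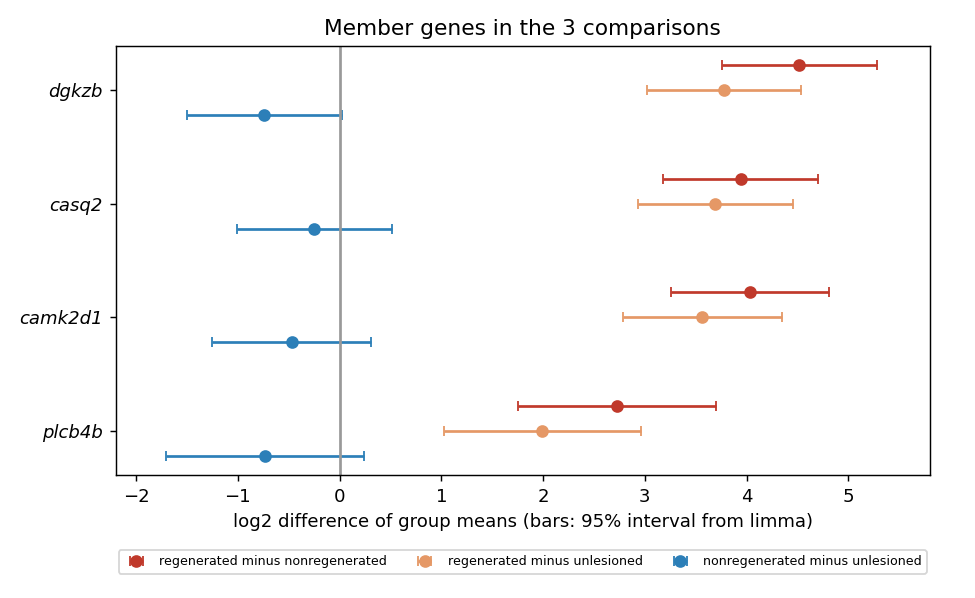
Log2 difference of group means for each member gene in the 3 comparisons (horizontal axis), with bars for the 95% interval from limma. The intervals of regenerated minus nonregenerated and regenerated minus unlesioned lie above 0, which follows from the choice of the genes and is no test. The 4 intervals of nonregenerated minus unlesioned include 0. None of the intervals takes account of how the genes were chosen or of the number of probe sets.

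Across the 9 arrays the members shared the step between groups, with Pearson correlations from 0.86 to 0.95 over the 6 pairs of genes. High correlations of this kind follow from choosing genes that are high in the same regenerated arrays. After each group's mean was subtracted, 5 of the 6 correlations were below 0, and they ran from -0.52 (dgkzb with plcb4b) to 0.47 (camk2d1 with plcb4b). These are descriptions over 9 arrays that share probe set centring and array quality. The array that was highest among the regenerated thus differed by gene, being array 2 for dgkzb and plcb4b, array 3 for casq2 and array 1 for camk2d1.

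Other genes of the same routes were read from 8 lists holding 115 measured genes besides the 4 members, each gene given the mean of its probe sets. The lists were chosen with earlier results of these data known, so the shares called among them depend in part on that choice. Against nonregenerated neurons 11 of the 115 were called higher by gene value in the regenerated neurons and none lower. These count camkvl, whose probe sets disagree in direction. The share called was 9.57%, where 2.96% of all 8793 named genes were called, 1.25% higher and 1.71% lower. The median difference of the 115 genes was 0.18, with 0.06 over all genes. Against unlesioned neurons 8 rose and none fell (6.96%, where 2.26% of all named genes were called, 0.910% higher and 1.35% lower), with a median of 0.11 and 0.06 over all genes. The count against nonregenerated neurons was 7 without nonregenerated array 3 and 6 with only the arrays of those 2 groups. The count against unlesioned neurons was 4 without regenerated array 2, 5 without unlesioned array 1, 5 without unlesioned array 2 and 4 without unlesioned array 3. Between nonregenerated and unlesioned neurons limma called none of the 115 genes, and none of all 8793 (5.39% of these had an unadjusted p under 0.05).

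At the start of the route, gna11b, which encodes a G protein alpha subunit of the Gq family, rose against nonregenerated neurons by 1.94 ± 0.33 (limma adjusted p = 0.0165). Its gene values were 0.91, 1.95 and 1.17 in the regenerated arrays, against -0.79, 0.04 and -1.04 in the nonregenerated and -0.18, -0.08 and -0.23 in the unlesioned arrays. Regenerated array 2 was the highest, as for plcb4b, and the regenerated arrays did not overlap with the others. Both of its probe sets were called against nonregenerated neurons, at 2.32 ± 0.41 and 1.56 ± 0.34, and the gene's difference from unlesioned neurons was 1.51 ± 0.33 (limma adjusted p = 0.0513). Its call was lost without nonregenerated array 1 (1.84) and without nonregenerated array 3 (1.72). None of the other 3 genes of this list was called, and metabotropic glutamate receptors were not among its measured genes.

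Of the phospholipases C, 5 were measured besides plcb4b and none was called in any comparison, with a median difference of -0.18 from nonregenerated and -0.01 from unlesioned neurons. The other beta form, plcb2, differed from nonregenerated neurons by 0.06 ± 0.33 and from unlesioned neurons by -0.29 ± 0.32. Whether plcb4b and plcb2 differ in their change was not tested. Of phosphoinositide and diacylglycerol turnover 21 genes were measured and none was called, with a median difference of 0.21 in both comparisons. Of protein kinase C and other diacylglycerol effectors none of 11 was called, with medians of 0.01 from nonregenerated and -0.18 from unlesioned neurons. The probe set of rasgrp4 in this list, picked out after its values were seen, had -1.81 ± 0.43 against nonregenerated neurons (limma adjusted p = 0.0638). Against unlesioned neurons it had -1.05 ± 0.43 (limma adjusted p = 0.298).

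The one diacylglycerol kinase measured besides dgkzb was dgkaa, of the calcium-sensitive alpha type. It rose by 1.98 ± 0.29 against nonregenerated (limma adjusted p = 0.00756) and by 1.87 ± 0.29 against unlesioned neurons (limma adjusted p = 0.0132). Its values were 1.08, 1.83 and 2.16 in the regenerated arrays, against 0.04, -0.30 and -0.61 in the nonregenerated and 0, -0.16 and -0.38 in the unlesioned arrays. Regenerated array 1 was the lowest of its group for dgkaa, as for dgkzb. The call against unlesioned neurons was lost without regenerated array 2 (1.80), unlesioned array 2 (1.88) or unlesioned array 3 (1.77), at limma adjusted p-values from 0.0521 to 0.0611.

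Among kinases of the calmodulin branch, camk2d2, which encodes the other delta form of CaMKII, rose with camk2d1. It was 2.45 ± 0.39 higher than in nonregenerated neurons (limma adjusted p = 0.0107) and 1.77 ± 0.39 higher than in unlesioned neurons, where it did not pass (limma adjusted p = 0.0511). One of its probe sets had values of 1.49, 2.71 and 1.74 in the regenerated arrays, against 0.16, -1.10 and -0.79 in the nonregenerated and 0, -0.05 and -0.05 in the unlesioned arrays. The other had 1.35, 1.84 and 1.36 in the regenerated arrays, against 0.21, -1.86 and -0.82 in the nonregenerated and -0.01, 0 and -0.0026 in the unlesioned arrays. Both probe sets were thus higher in all regenerated arrays, with array 2 at the top, whereas camk2d1 was highest in array 1. The call was lost when only the arrays of those 2 groups were fitted (limma adjusted p = 0.0507). The pseudokinase relative camkvl was called at 1.04 ± 0.21 against nonregenerated neurons, but its 2 probe sets went opposite ways, at 3.01 ± 0.34 and -0.93 ± 0.18. Its count among the higher genes rests on their mean alone, and the gene is not read as risen. The call was lost in 5 of 9 runs that left out 1 array. The remaining gene, camk1ga, had 0.30 ± 0.24 and was not called.

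The other genes of calcium stores, 20 of them, were not called in any comparison, and their median difference was 0.04 from nonregenerated and -0.08 from unlesioned neurons. Of the pumps that fill the store, atp2a2a and atp2a2b had differences of 0.42 ± 0.25 and 0.25 ± 0.41 from nonregenerated neurons. Those of atp2a1 and atp2a1l were -0.22 and 0.11. The largest difference in this list, picked out after its values were seen, was that of fkbp1b, whose mammalian form binds the ryanodine receptor, at 2.28 ± 0.53 against nonregenerated and 2.42 ± 0.53 against unlesioned neurons (limma adjusted p = 0.0545, and limma adjusted p = 0.0504). Ryanodine receptor and inositol trisphosphate receptor genes were not among the measured genes of the list.

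Calmodulin and calcium-binding proteins held 7 of the 11 called genes, with 7 of 50 higher and none lower in both comparisons. The median difference over the list was 0.24 from nonregenerated and 0.09 from unlesioned neurons. The calcineurin catalytic subunit gene ppp3cb rose by 2.76 ± 0.26 against nonregenerated (limma adjusted p = 0.000819) and by 2.39 ± 0.26 against unlesioned neurons (limma adjusted p = 0.00232). Its values were 2.14, 2.55 and 2.66 in the regenerated arrays, against -0.43, -0.09 and -0.41 in the nonregenerated and 0.52, -0.35 and 0 in the unlesioned arrays. The other catalytic subunit gene measured, ppp3cca, was not called. Its probe sets had -0.58 ± 0.29 and 0.17 ± 0.24 against nonregenerated neurons, and -0.95 ± 0.29 and -0.25 ± 0.24 against unlesioned neurons. The neuronal calcium sensor gene hpca rose by 3.66 ± 0.41 and 3.21 ± 0.41 in the same order of comparisons (limma adjusted p = 0.00254, and limma adjusted p = 0.00557), with regenerated arrays between 2.77 and 3.08 and no other array above 0.535. The gene ncalda of this list, picked out after its values were seen, was not called by gene value. Its gene values were -0.51, -1.91 and -1.18 in the regenerated arrays, below all other arrays. Its probe sets had -1.27 ± 0.55, -1.66 ± 0.32 and -1.80 ± 0.48 against nonregenerated neurons. That at -1.66 was called lower (limma adjusted p = 0.0306). The parvalbumin genes pvalb7 and pvalb6 and the gene pcp4l1, related to Purkinje cell protein 4, rose in both comparisons, pvalb6 by 3.13 ± 0.48 and 2.66 ± 0.48. The parvalbumin genes pvalb1, pvalb2, pvalb3, pvalb4, pvalb5 and pvalb9 were not called. They had 0.60, 0.24, 0.36, 0.14, 0.54 and 0.15 against nonregenerated neurons.

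The call of pvalb6 against unlesioned neurons was lost without any of the 3 regenerated arrays, unlesioned array 1 or unlesioned array 3, with differences from 2.41 to 2.87. Those of pvalb8 (1.09 ± 0.23 and 1.15 ± 0.23) were lost in both comparisons in each run but that without regenerated array 3, with differences from 0.93 to 1.12 against nonregenerated and from 1.00 to 1.22 against unlesioned neurons. Those of the S100 gene s100a1 (2.05 ± 0.39 and 1.86 ± 0.39) were lost against nonregenerated neurons without regenerated array 3 or any 1 nonregenerated array, and against unlesioned neurons in each run but that without regenerated array 1, with differences from 2.04 to 2.11 and from 1.40 to 2.04.

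**Figure D3:**
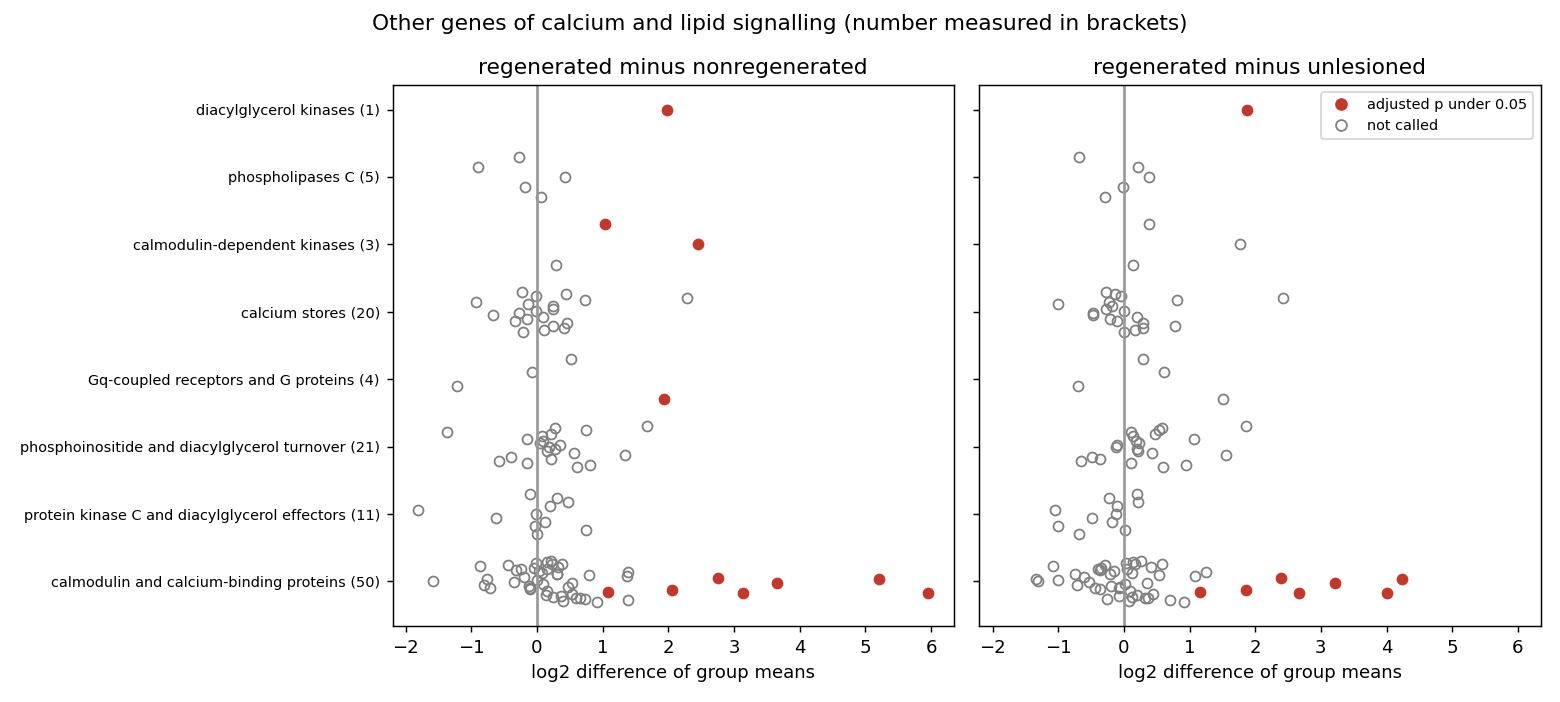
Log2 difference of group means (horizontal axis) for each of the 115 other genes in the 8 lists, for regenerated minus nonregenerated and regenerated minus unlesioned neurons, with filled points for an adjusted p under 0.05. The 11 and 8 called genes all lie above 0, with camkvl, among the 11, drawn at the mean of probe sets that disagree in direction.

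**Figure D4:**
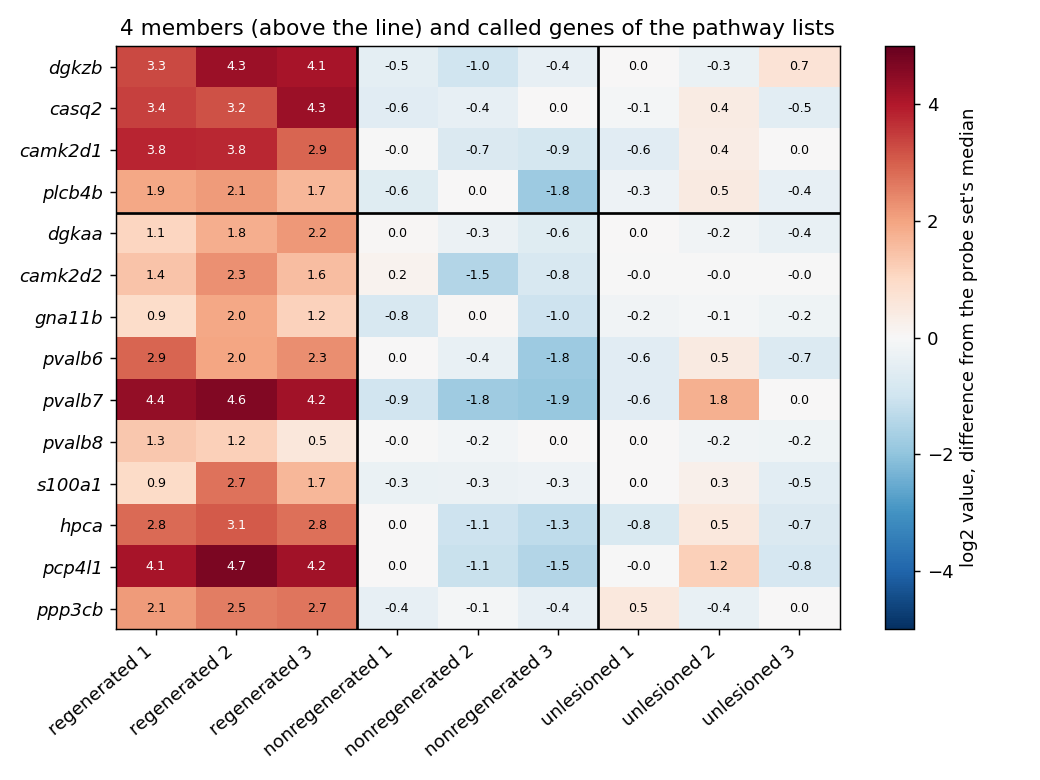
Log2 value on each array (colour and printed number, difference from the probe set's median) of the 4 members, above the line, and of the called genes of the lists, camkvl left out because its probe sets disagree. The regenerated arrays, in the 3 columns at the left, are the highest for each of these genes.

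The genes whose pattern was most like that of each member were read off by Pearson correlation over the 9 arrays among 10794 probe sets with 1 other symbol. The nearest 5 of each member gave 19 distinct genes, of which 4 stand in the 8 lists. For plcb4b they were gna11b, pvalb6, the noncoding RNA gene oip5-as1, the GABA enzyme gene gad1b and the plasma membrane calcium pump gene atp2b2, with correlations from 0.95 to 0.96. For casq2 they were crp, col15a1a, the nucleoside diphosphate kinase gene nme2b.2, pbxip1b and the mitochondrial dehydrogenase gene ogdhl (0.96 to 0.98). For camk2d1 they were slmapb, hpca, the 14-3-3 gene ywhaz, si:dkey-35i13.1 and sypl2a (0.98 to 0.99). For dgkzb they were cox6b1, the chaperone gene dnajb6b, ywhaz, ppp3cb and the calcium pump gene atp2b1a (0.97 for each).

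The differences of these 20 from nonregenerated neurons ran from 0.60 for crp to 3.71 for pbxip1b. These correlations include the step between groups. After each group's mean was subtracted, the nearest 5 were other genes for each member, with correlations of similar size, from 0.90 to 0.99. They were led by atp2a2b for dgkzb, zgc:64106 for casq2, kgd4 for camk2d1 and stub1 for plcb4b, whose differences from nonregenerated neurons were 0.25, 0.45, -0.04 and 0.27. These genes were picked as the highest of 10794 probe sets over few arrays, a search that can give high correlations among unrelated genes. Whether the correlations exceed what such a search gives was not tested, and the genes are not read as partners of the members.

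Some marker lists of cell types differed between the groups as the members did, and others did not. The mean value of the 12 measured Purkinje cell markers was 1.301 to 1.65 in regenerated, -0.70 to -0.04 in nonregenerated and -0.10 to 0.66 in unlesioned arrays. Of these 12, 6 rose and none fell against nonregenerated neurons, 4 rose and none fell against unlesioned neurons, and 4 also stand in the lists of calcium genes. Of all named genes 1.25% were called higher and 1.71% lower against nonregenerated neurons, and 0.910% and 1.35% against unlesioned neurons. The Purkinje list was not uniform. Its median difference was 0.90 from nonregenerated and 0.49 from unlesioned neurons, and 4 genes, aldoca, pvalb7, pcp4l1 and ca8, had 6.33, 5.96, 5.21 and 3.90 against nonregenerated neurons. In all regenerated arrays 6 of the 12 were higher and 3 lower than in any nonregenerated array, where 12.8% and 9.37% of all named genes were. Against unlesioned arrays 6 were higher and 4 lower, where 11% and 9.03% of all named genes were. The aldolase gene aldoca, of the zebrin II antigen, and ca8, a carbonic anhydrase relative that in mouse binds the inositol trisphosphate receptor, were among the 6. The genes homer3b, foxp2, rorab, cbln1 and pcp4a had -1.22 ± 0.34, -0.98 ± 0.31, -0.71 ± 0.19, -0.09 ± 0.58 and -0.0036 ± 0.40 against nonregenerated neurons and were not called. Unlesioned array 2 had the highest Purkinje mean of its group and also the highest casq2, camk2d1 and plcb4b values, but the lowest dgkzb value. Their part in the members' values was not tested.

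Muscle markers bear on casq2, which in mammals is known chiefly from muscle. None of 16 cardiac muscle genes and none of 26 skeletal muscle genes was called in any comparison, with median differences of 0.26 and 0.23 from nonregenerated neurons, against 0.06 over all genes. Genes of both lists nevertheless lay mostly above 0. Of the 16 cardiac genes 15 did so in both comparisons, and of the 26 skeletal genes 19 against nonregenerated and 23 against unlesioned neurons. The median of all named genes also lay above 0, at 0.06 in both comparisons. In all regenerated arrays 6 of the 16 cardiac genes were higher than in any nonregenerated array and 8 of the 16 higher than in any unlesioned array. Of the 26 skeletal genes 10 and 4 were so, where 12.8% and 11% of all named genes were. The part of muscle transcripts in the casq2 values was not tested. The cardiac list averaged 0.02 to 0.30 in regenerated, -0.14 to 0.01 in nonregenerated and -0.11 to 0.06 in unlesioned arrays, and the heart gene myl7 differed from nonregenerated neurons by 0.03 ± 0.23. In regenerated arrays 1, 2 and 3 the cardiac list averaged 0.26, 0.02 and 0.30 and the skeletal list 0.24, 0.05 and 0.27. The negative control median was 0.48, 0.04 and 0.28 in the same arrays, and casq2 had 3.41, 3.17 and 4.28. The part of the background reading in the muscle lists was not tested. Whether a marker is at background cannot be told from centred values.

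Pan-neuronal markers averaged 0.10 to 0.53 in regenerated, -0.85 to -0.22 in nonregenerated and 0.02 to 0.13 in unlesioned arrays. Of 25, 8 rose and none fell against nonregenerated neurons, and 4 rose and none fell against unlesioned neurons. Their median difference was 0.87 and 0.10 in the same order. Between nonregenerated and unlesioned neurons it was -0.60, with none called. There 12 of the 25, by gene value, were lower in all nonregenerated arrays than in any unlesioned array. The share at hand for all features, 5.90%, counts single probe sets and not gene values. Radial glia and astroglia markers averaged -1.59 to -0.62 in regenerated, 0.13 to 0.40 in nonregenerated and -0.23 to 0.27 in unlesioned arrays. Of 23, 7 were called lower and none higher against nonregenerated neurons, and 7 lower and none higher against unlesioned neurons. Oligodendrocyte genes averaged -1.39 to -0.61 in regenerated, -0.09 to 0.31 in nonregenerated and -0.01 to 0.44 in unlesioned arrays, with 4 of 12 lower and none higher in each comparison. Of all named genes 1.25% were called higher and 1.71% lower against nonregenerated neurons, and 0.910% and 1.35% against unlesioned neurons. Regenerated array 1 was nearest to the other groups for both glial lists and was the lowest of its group for dgkzb and dgkaa, but not for casq2, camk2d1 or plcb4b. The part of the glial markers in these values was not tested. Lists of cerebellar granule cells, leukocytes, endothelium and erythroid cells did not separate the regenerated arrays from the other 6. Granule cell genes averaged -0.27 to 0.16 in regenerated, -0.57 to -0.28 in nonregenerated and 0.04 to 1.202 in unlesioned arrays. Erythroid genes averaged -0.14 to 0.37 in regenerated, -0.41 to -0.34 in nonregenerated and 0.14 to 1.22 in unlesioned arrays. Of these 4 lists, calls against nonregenerated neurons were made only for endothelium, with 2 of 9 lower, and against unlesioned neurons for 1 leukocyte gene (higher), 1 endothelial gene and 1 erythroid gene (both lower).

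**Figure D5:**
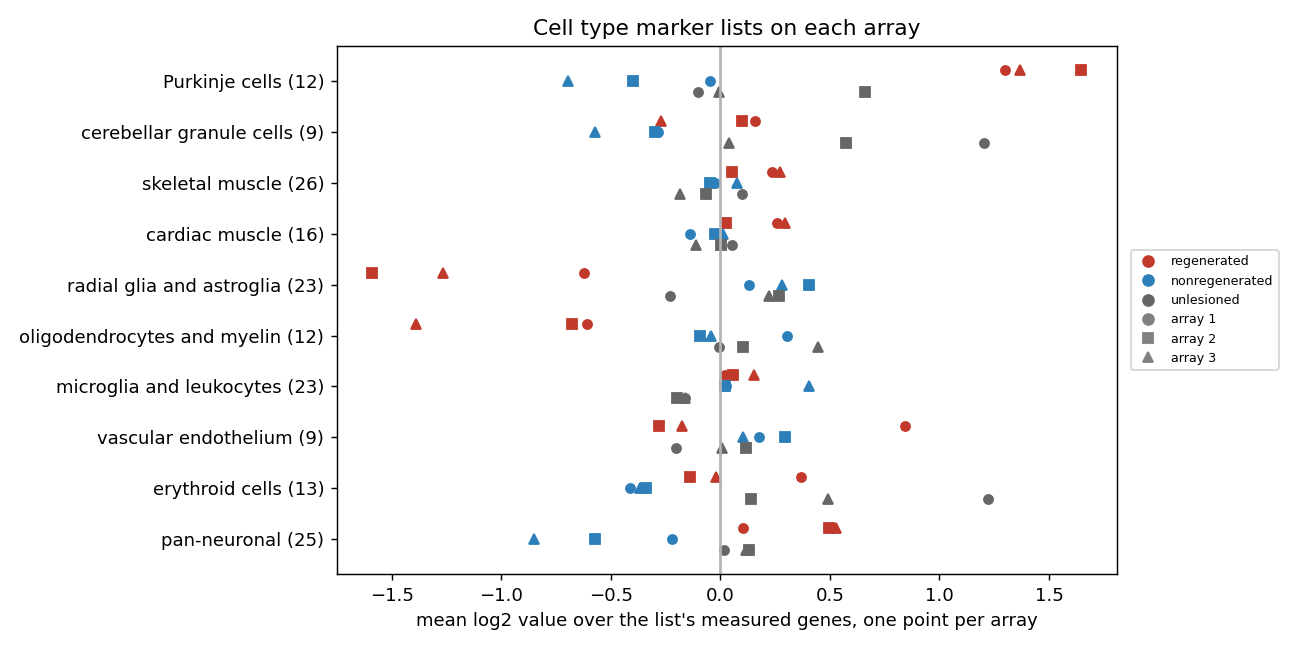
Mean log2 value over the measured genes of each cell type marker list (horizontal axis, number of genes in brackets), 1 point per array, with colour for the group and shape for the array number. The Purkinje list lies at 1.301 or above in regenerated arrays and at 0.66 or below in the others, the glial lists lie below 0 in regenerated arrays, and the muscle lists lie within 0.30 of 0 in all arrays.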

How the data were processed

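RNA of sorted neurons was hybridised to 9 Affymetrix 3' IVT zebrafish arrays, 3 in each group. The deposited log2 values are the authors' RMA output, as named in the submitters' processing notes without a version. Each probe set had a median of 0 over the 9 arrays, by a step the labels do not name. After 115 control probe sets were left out, 15502 were fitted in 1 limma model (limma 3.58.1, R 4.3.3) of 3 group means, with 6 residual and 3.16 prior degrees of freedom. Errors beside differences are standard errors of that model, tests are two-sided, and calls are at a Benjamini-Hochberg adjusted p under 0.05. Of the probe sets 10795 carry 1 gene symbol, 135 several and 4572 none, from platform annotation with symbols updated through RefSeq gene identifiers. Gene values are means of probe sets and were adjusted over 8793 genes. Named genes were the members, every called gene of the lists, their closest paralogs, and the 5 most alike, beside those said to be picked out later and examples from marker lists. The members and lists were chosen with earlier results of these data known. The model was tested on simulated data. No sequence or genome coordinate was used. The number of arrays limits the precision, and no scan date or batch was known. Alternatives covered scaling, weights, moderation, a minimum difference, the replicate block, the negative control reading, probe sets open to cross-hybridization and each array left out. Figures were drawn with matplotlib 3.10.9.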

Additional observations from a re-analysis of the deposited data

How the results depend on the processing

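In each alternative run, the 4 members were higher in regenerated than in nonregenerated or unlesioned neurons, and 0 of them was called between nonregenerated and unlesioned neurons. Their differences moved by more than the spread between replicates after quantile normalization, for dgkzb, casq2 and camk2d1 (2.57, 2.74 and 2.49 against unlesioned neurons), and for dgkzb with the negative control covariate (4.40). The 380 probe sets called against nonregenerated neurons became 176 after quantile normalization, 224 with only those 2 groups, 142 when tested against a difference of 0.5, 183 with the covariate, and 181 to 572 with 1 array left out. The 344 against unlesioned neurons became 96, 158, 71 and 130 in the same order, and 58 to 418. The 11 other pathway genes became 6 with only those 2 groups, 7 against a difference of 0.5, and 7 to 14 with 1 array left out. The 8 became 2 after quantile normalization, 4 against a difference of 0.5, and 4 to 9. Between nonregenerated and unlesioned neurons 0 to 1 probe sets were called with 1 array left out, the 1 without unlesioned array 2. Centring arrays on the 75th percentile moved the overall median difference by -0.12 and -0.11 and gave 128 higher and 342 lower, and 99 higher and 282 lower, against 162 and 218, and 135 and 209 as deposited. With it, 9 pathway genes were higher and 1 lower against nonregenerated neurons. The covariate gave 110 higher and 73 lower, and 71 and 59. The replicate block gave 280 and 193 calls and left 9 and 8 pathway genes. Same-numbered arrays had correlated deviations of -0.19 to 0.26, and others -0.26 to 0.24. Between regenerated and nonregenerated arrays alone, same-numbered arrays had 0.12, -0.04 and 0.26, and others -0.26 to 0.15. The numbers were not taken to pair samples, though so few values cannot settle whether they do. The cause of these changes was not tested.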
